A study of Mus musculus with 26 samples.

Results

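The mir-297, mir-466, mir-467 and mir-669 families are 4 groups of mouse miRNA precursors with similar names and repeat-like sequences. They were taken from the small RNA table of the mouse hippocampus by name, as every miRNA entry that begins with 1 of these 4 family names. This gave 82 members of 1054 miRNA entries, with 6 in the mir-297, 29 in the mir-466, 17 in the mir-467 and 30 in the mir-669 family. Of the 82 members, 59 reached 10 counts in at least 6 libraries.

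A miRNA is cut from a hairpin precursor and guides the silencing complex to mRNAs that pair with its seed, bases 2 to 8 of the mature strand. Most precursors of these families lie within an intron of Sfmbt2, the gene of a Polycomb protein that is imprinted and expressed from the paternal allele in the mouse placenta. The cluster is best known for its expression in the placenta and in embryonic stem cells. Because its members are close copies of each other, a short read often matches several precursors.

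The study asked whether acute stress changed miRNAs in the dorsal (dHC) and ventral (vHC) hippocampus. All mice were C57BL/6J males of 2 to 3 months. Control mice stayed in the home cage (time 0) and swim mice were sampled 45 min after the start of a 6 min swim at 18 °C, with both hemispheres used. There were 8 vHC control, 6 vHC swim, 6 dHC control and 6 dHC swim libraries. The labels give each library a block as 1 of 3 dates, here blocks 1, 2 and 3 with 10, 8 and 8 libraries, each with all 4 groups. Block 1 holds 4 of the 8 vHC control libraries but 2 of the 6 libraries of each other group. The labels do not say what the date marks, and whether the blocks are the study's 3 batches of library preparation was not tested. Total miRNA counts were between 1357739 and 4819724 in 25 libraries and 465387 in dHC control library 24. The labels tie no library to an animal. Marker miRNAs of neurons were measured in every library, at a summed 159979 to 331399 CPM (counts per 1e+06 miRNA counts, scaled by TMM).

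Mature sequences were held by RefSeq for 8 members, and these carried 8 different seeds. All 8 lie outside Sfmbt2 and none is of the mir-297 family, so the sequences below do not describe the Sfmbt2 intron members. The 3 printed here are those of the only members outside Sfmbt2 that could be tested, mir-467h and mir-466q, and of mir-466i, which lay just inside the count threshold. Capitals mark the seed, and positions are on GRCm38.p6.
mir-467h (chr9:115381898-115381919, + strand): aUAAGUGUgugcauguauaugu
mir-466q (chr3:28419988-28420007, + strand): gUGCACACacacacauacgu
mir-466i, 3p strand (chr13:17747552-17747573, + strand): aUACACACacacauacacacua
The first is a UG-type and the other two are AC-type sequences. The run UGUGUGUG or ACACACAC was present in 6 of the 8 members with a sequence and in 5 (0.592%) of 844 other miRNAs. Of the 8, mir-467h and mir-466j did not hold it.

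Of the 82 members, 80 were matched to the annotation (GENCODE vM21, GRCm38), and 70 of these lie on the strand of Sfmbt2 within 1 intron of it. That intron (chr2:10461473-10523944) is the intron numbered 10 or 11, depending on the transcript, and the members span 51.6 kb of it, from chr2:10466663 to 10518279. In the middle of the span, copies of mir-467a or mir-467b recurred at a median gap of 2.45 kb, from 2.41 to 4.88 kb. Copies of mir-669a recurred at a median gap of 2.46 kb and copies of mir-466b, mir-466c and mir-466e also at 2.46 kb. Over most of that stretch the 3 kinds followed each other in 1 repeated order. For example, mir-467a-1 began 105.8 kb, mir-466b-8 106.1 kb and mir-669a-1 106.3 kb from the start of Sfmbt2. The other 10 matched members were elsewhere, with mir-467h on chromosome 9 (115381819 to 115381939, in no annotated gene) and mir-466q on chromosome 3 (28419943 to 28420018, in an intron of Tnik, a kinase gene, on its strand).

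The families were a small part of the hippocampal miRNAs. Their summed count was 156 to 3593 per library and 0.0666% of all miRNA counts. By mean level per precursor entry, over which shared reads were split, the highest was mir-467e (59.5 CPM, rank 273 of 1054), followed by mir-467h (52.6 CPM) and mir-466d (49.0 CPM). mir-669c stood at 39.9 CPM and mir-467d at 31.8 CPM. With the copies of a miRNA summed, mir-467a (10 copies, 119 CPM) and mir-669a (12 copies, 68.8 CPM) stood above mir-467e. These levels are counts per precursor entry and were not divided by precursor length. At the other end, 12 members did not reach 10 counts in any library. mir-466i reached 10 counts in 7 libraries at a mean of 2.61 CPM and mir-297a-2 in 5 libraries at 2.79 CPM, so they stand on either side of the count threshold.

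**Figure D1:**
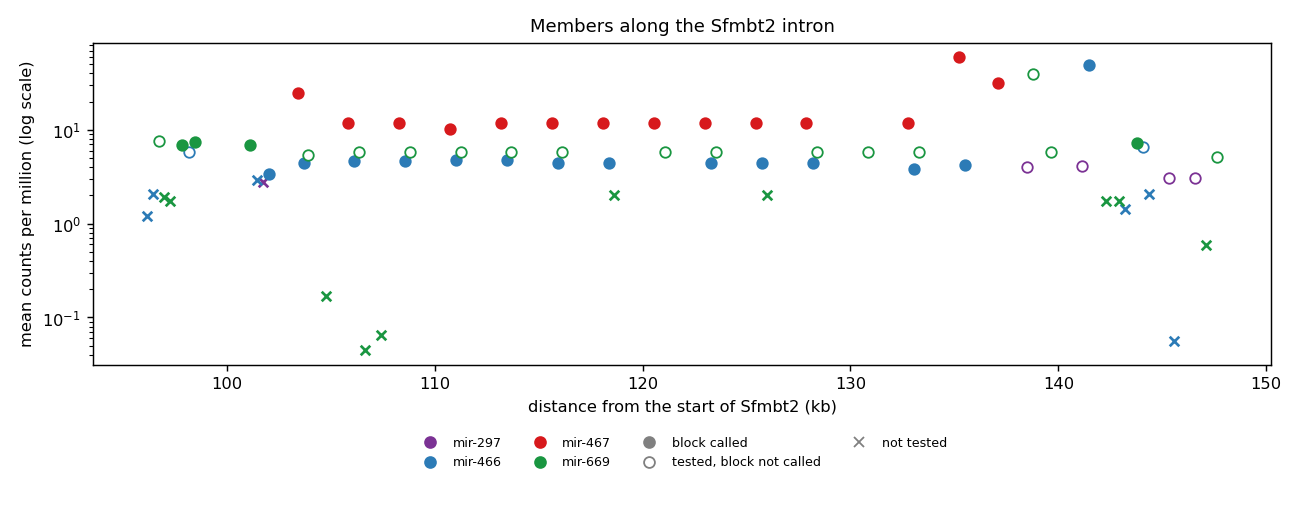
Mean level of the 70 members within the Sfmbt2 intron, in CPM on a log axis, against the distance of their start from the start of Sfmbt2 in kb. Colours are families, filled points passed the block test, open points were tested and did not pass, and crosses were not tested. The copies of mir-467a form a row at 11.9 CPM, above a row of mir-669a copies at 5.76 CPM.

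Many of these entries are not separate measurements. Of the members' deposited values, 91.3% were not whole numbers, against 16.9% for other miRNA entries, as reads were split among precursors. Values of 0 counted as whole in both shares, so the contrast may in part reflect how many values were 0. The 10 copies of mir-467a held the same rounded count as each other in every library and together made up 19.6% of the summed set. Counted once where their unrounded values were equal in every library, the 82 members gave 56 distinct profiles. Among tested members mir-466g had the most whole values, at 92.3% of those above 0, followed by mir-669h at 42.3%. The filter on low counts kept 57 members, or 30 distinct profiles by rounded count, and left out 25. Of the 57, 51 had at least 10 counts in 6 or more of the 16 libraries of blocks 2 and 3. Only mir-467h and mir-466q of the 57 lie outside Sfmbt2, and 2 of the 57 had no matched position.

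The summed set differed more between blocks than between groups. In vHC it stood at 635 ± 221 CPM (SD, n = 8) in control and 597 ± 205 CPM (SD, n = 6) in swim mice. In dHC it stood at 651 ± 283 CPM (SD, n = 6) in control and 618 ± 180 CPM (SD, n = 6) in swim mice. All 4 ranges overlapped, from 398 to 1088 CPM over the 26 libraries. Group and region means, medians and ranges, here and below, are not adjusted for block, and vHC control has the largest part of its libraries in block 1. With block in the model, swim minus control in vHC was 0.07 log2 (SE 0.14), opposite in sign to the raw means. By block, the sum was 851 ± 153 CPM in block 1 (SD, n = 10), 479 ± 60.6 CPM in block 2 (SD, n = 8) and 493.1 ± 98.2 CPM in block 3 (SD, n = 8). In 8 of the 10 libraries of block 1 it was above every library of blocks 2 and 3.

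No member was called for the swim. Stress and its interaction with region, tested together with edgeR, passed the threshold for 0 of 57 members and for 0 of 463 entries (0%). The smallest adjusted p of a member was 0.725. At an unadjusted p under 0.05 the counts were 0 members and 16 entries of the 463, and DESeq2 also called 0 members. The tests of stress within vHC, of stress within dHC and of the interaction each called 0 members, with 0 members at an unadjusted p under 0.05.

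The 5 profiles with the smallest p for stress were all of the mir-669 family. mir-669a-1, which has the same profile as 10 further copies of mir-669a, ranged from 4.27 to 8.27 CPM (median 6.19) in vHC control and from 3.05 to 5.83 CPM (median 5.59) in vHC swim libraries. In dHC mir-669a-1 ranged from 4.30 to 9.89 CPM (median 6.30) in control and from 3.23 to 7.00 CPM (median 5.71) in swim libraries. The ranges of control and swim overlapped in both regions. The log2 difference of mir-669a-1, swim minus control, was -0.32 (SE 0.14) in vHC and -0.24 (SE 0.14) in dHC, with an edgeR adjusted p of 0.725 for stress and interaction.

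The other 4 profiles overlapped between control and swim as well. mir-669a-3 averaged 5.71 ± 1.17 CPM in vHC control (SD, n = 8) and 4.62 ± 1.03 CPM in vHC swim libraries (SD, n = 6). mir-669o averaged 8.20 ± 1.83 CPM and 6.65 ± 1.68 CPM in the same groups. For mir-669l the larger difference was in dHC, where it ranged from 4.83 to 13.1 CPM in control and from 1.73 to 7.17 CPM in swim libraries. mir-669c ranged from 28.4 to 58.6 CPM in vHC control and from 28.3 to 46.5 CPM in vHC swim libraries. The adjusted p of each of these 4 was 0.793 by edgeR, as was that of mir-466f-2.

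Over the 57 tested members, the median log2 difference was -0.19 in vHC, with 52 members below 0, beside -0.03 over all 463 entries. These counts of members are not counts of separate measurements, as the 57 are 30 distinct profiles. Among the 52 are the 10 equal copies of mir-467a and 11 equal copies of mir-669a. In dHC the median was 0.02 over the members and 0.02 over all entries, with 24 of 57 members below 0. The median SE of a member was 0.15 in vHC and 0.16 in dHC. With block in the fit in place of the surrogate variables, 36 of 57 members were below 0 in vHC and 49 in dHC. With the surrogate variables kept, 51 members were below 0 in dHC with DESeq2, 41 with TMMwsp scaling and 35 with unscaled library sizes, so the count of negative signs there moved with the scaling and tool as well as with the covariates. Summed with block in the model, the set differed by 0.07 log2 (SE 0.14) in vHC and by -0.02 log2 (SE 0.15) in dHC, swim minus control. The summed mir-467 family differed by 0.27 log2 (SE 0.19) in vHC, while the fit with surrogate variables gave its tested members a median of -0.13 there. Within blocks the sign in dHC was not the same, with the set at -0.28 log2 in block 1, -0.24 in block 2 and 0.47 in block 3, each from 2 swim and 2 control libraries.

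**Figure D2:**
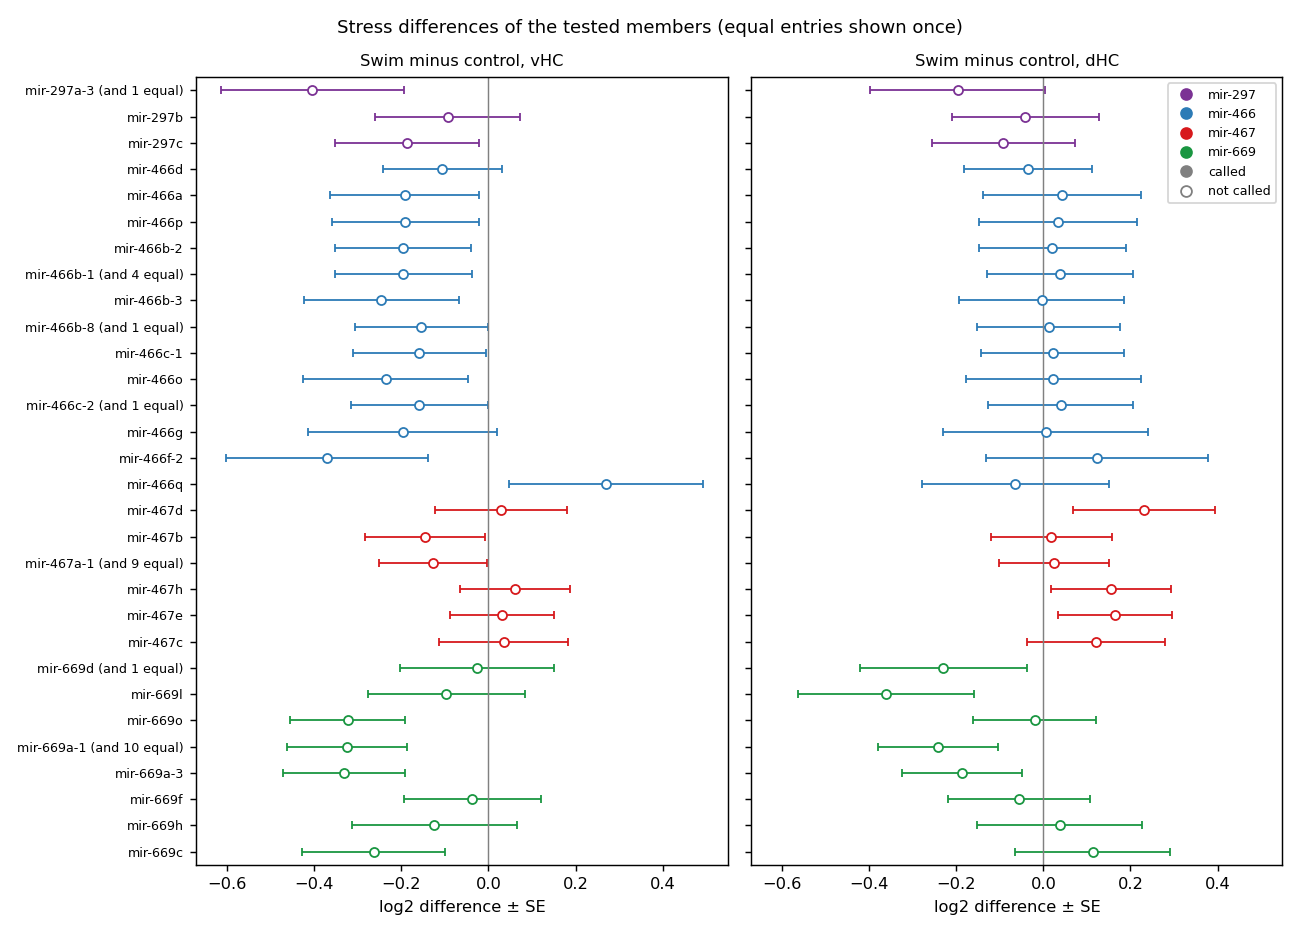
Log2 difference of swim minus control with its SE for the 30 distinct profiles of the tested members, in vHC (left) and dHC (right), coloured by family. All points are open since 0 members passed the test of stress and interaction.

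Between regions, the mir-467a copies and mir-467b were called higher in dHC in the fit with block, close to the threshold and not in all fits. The test of dHC minus vHC, averaged over control and swim and with block in the fit, called 11 of 57 members (19.3%), all higher in dHC, beside 167 of 463 entries (36.1%), of which 81 (17.5%) were higher and 86 (18.6%) lower. The 11 members are 2 profiles, the 10 equal copies of mir-467a and mir-467b. The members' share was thus below that of all entries, and their share called higher (19.3%) was near that of all entries (17.5%). Fewer cells of a type and less RNA per cell cannot be told apart in these bulk samples.

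Each copy of mir-467a, represented by mir-467a-1, ranged from 4.73 to 21.8 CPM (median 7.76, n = 14) in vHC and from 5.16 to 32.5 CPM (median 9.84, n = 12) in dHC. The ranges of the regions overlapped. The log2 difference of mir-467a-1, dHC minus vHC, was 0.46 (SE 0.18, edgeR adjusted p = 0.0438). For mir-467b the range was 4.09 to 20.4 CPM in vHC (median 6.59) and 4.25 to 29.7 CPM in dHC (median 8.24). Its log2 difference was 0.49 (SE 0.20, edgeR adjusted p = 0.0499). Within blocks, the difference of mean log2 values for mir-467a-1 was 0.72 in block 1, 0.08 in block 2 and 0.33 in block 3. For mir-467b it was 0.77 in block 1, -0.03 in block 2 and 0.37 in block 3.

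Both calls were close to the threshold, and the count of 11 fell to 0 without vHC swim library 15, dHC control library 8, dHC swim library 6, dHC control library 18, vHC control library 25 or dHC swim library 28. It fell to 1, mir-466q, without vHC swim library 27. Without block 1 it was also 0. Within control mice 0 of 57 members were called by edgeR, beside 104 of 463 entries (22.5%, of which 7.78% higher and 14.7% lower), with 14 members at an unadjusted p under 0.05. DESeq2 called 11 members there, edgeR with TMMwsp scaling also called 11, and a fit of the control libraries alone called 12 of 55, all higher, beside 118 of 440 entries (26.8%). The split of all entries called within control mice was 36 higher and 68 lower in the fit reported here, 73 and 60 with DESeq2, and 63 and 64 with TMMwsp. Within swim mice 0 of 57 members were called, beside 94 of 463 entries (20.3%, of which 7.56% higher and 12.7% lower), with 0 members at an unadjusted p under 0.05 and 0 by DESeq2.

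The next members by region were not called. mir-466q ranged from 2.25 to 9.06 CPM (median 5.06) in vHC and from 4.38 to 12.05 CPM (median 6.62) in dHC. Its log2 difference was 0.37 (SE 0.17, edgeR adjusted p = 0.0729), and it was 0.69, 0.34 and 0.48 within blocks 1, 2 and 3. mir-466q held a whole value in 1 of 26 libraries, so part of its count comes from reads shared with other precursors. Its region difference can therefore not be placed at Tnik. mir-297a-3 differed by 0.31 log2 (SE 0.16, edgeR adjusted p = 0.201) and mir-669a-3 by 0.22 (SE 0.14, edgeR adjusted p = 0.213). When entries that are copies of 1 miRNA were summed first, 3 of 28 miRNAs (10.7%) were called beside 169 of 404 (41.8%) over all miRNAs, namely mir-467a (0.47), mir-467b (0.55) and mir-466q (0.44), all higher in dHC.

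The regional differences of mir-467a-1 and mir-467b each changed sign in 1 of 42 alternatives. A fit with 2 surrogate variables in place of block used vectors estimated here with region in the null model, not the study's own. In it mir-467a-1 differed by -1.14 log2 (edgeR adjusted p = 0.0386) and mir-467b by -1.27 (edgeR adjusted p = 0.0387), lower in dHC. All 11 members then called were lower, beside 64 of 463 entries (13.8%) lower and 21 (4.54%) higher. With neither block nor surrogate variables, mir-467a-1 stood at 0.40 log2 and mir-467b at 0.42, with 0 members called. Over all alternatives the adjusted p was 0.00358 to 0.536 for mir-467a-1 and 0.0158 to 0.578 for mir-467b. Surrogate variable 2 followed region for 91.1% of its variance, and the median of all entries stood at -0.21 log2 in that fit. By sums with block in the model, the families differed little between regions, by 0.13 log2 (SE 0.15) for mir-297, -0.0015 (SE 0.09) for mir-466, 0.19 (SE 0.14) for mir-467 and 0.02 (SE 0.10) for mir-669. Marker miRNAs of oligodendrocytes were higher in dHC for 3 of 3 entries tested, with summed levels of 3321 to 4939 CPM in vHC and 4329 to 7617 CPM in dHC. Erythroid markers were lower in dHC for 2 of 4 entries, and choroid plexus and ependyma markers were higher for 3 and lower for 3 of 7. Neuron markers were higher for 2 and lower for 2 of 10, and 0 of 4 myeloid and 0 of 1 endothelial entries were called. These marker counts are from the fit with block, beside 36.1% of all 463 entries called. The part of these in the members' result was not tested.

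Most tested members of the mir-466 and mir-467 families were lower in blocks 2 and 3 than in block 1. The block test called 35 of 57 members (61.4%), or 19 of the 30 distinct profiles, beside 246 of 463 entries (53.1%). All 35 were called lower in blocks 2 and 3 than in block 1, a contrast that called 60% of all entries, 33.3% lower and 26.8% higher. The same number, 35, was called lower in block 2 than in block 1, beside 29.8% of all entries lower and 22.7% higher. In block 3 against block 1 it was again 35, beside 30% lower and 22% higher. The median log2 difference was -0.74 over the members, -0.07 over all entries and 0.01 over the other miRNAs. Between blocks 3 and 2 edgeR called 0 members and 0 entries (0%), with 0 members and 51 entries at an unadjusted p under 0.05. Of the 57 tested members, 51 reached 10 counts in 6 or more libraries of blocks 2 and 3. The count called for block among these members alone was not computed. Without the filter on low counts, the block test called 35 of 82 members (42.7%) beside 272 of 1034 entries (26.3%).

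The mir-467 family was lower for all 15 tested members, by 0.84 to 1.68 log2. mir-467h ranged from 56.7 to 98.8 CPM (median 76.0, n = 10) in block 1 and from 23.2 to 53.0 CPM (median 36.6, n = 16) in blocks 2 and 3. The ranges did not overlap, so that each library of block 1 was above all the others. Its log2 difference was -1.08 (SE 0.11, edgeR adjusted p = 2.92e-08). mir-467e ranged from 63.2 to 115 CPM in block 1 and from 28.8 to 61.9 CPM in blocks 2 and 3, again without overlap, and differed by -1.07 log2 (SE 0.11). These were the 2 members without overlap, beside 6 of 463 entries (1.3%) that were higher in block 1 in this way. In the other direction there were 0 members, beside 1.94% of entries. mir-467e and mir-467h each held a whole value in 0 libraries, so both include split reads and may not be separate measurements. The separation held in both regions and in control and swim libraries alike, as the plot of 4 mir-467 entries by block shows.

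**Figure D3:**
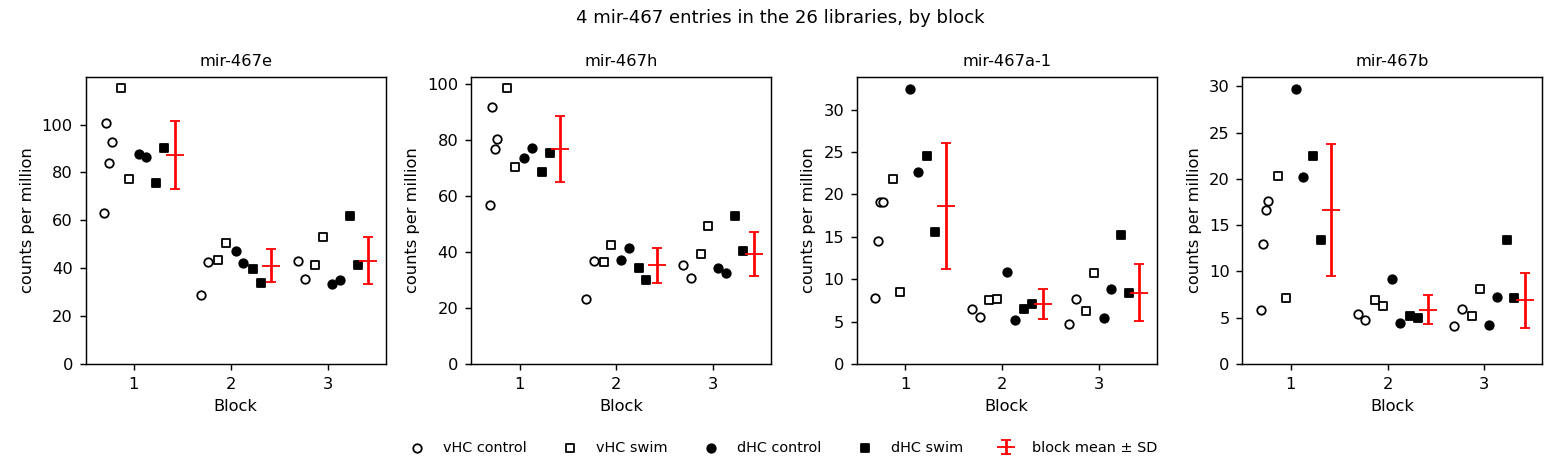
Levels in CPM of mir-467e, mir-467h, mir-467a-1 and mir-467b in each of the 26 libraries by block, with circles for control, squares for swim, open symbols for vHC and filled symbols for dHC. The red bars are the mean ± SD of each block. For mir-467e and mir-467h all 10 libraries of block 1 are above all 16 libraries of blocks 2 and 3, and for the other two 7 of the 10 are.

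mir-467d had the largest log2 difference of the tested members, with 54.9 ± 18.1 CPM in block 1 (SD, n = 10), 14.98 ± 5.46 CPM in block 2 (SD, n = 8) and 19.7 ± 4.38 CPM in block 3 (SD, n = 8). The log2 difference was -1.68 (SE 0.17). In 9 of the 10 libraries of block 1 it was above every library of blocks 2 and 3. mir-467a-1 differed by -1.24 log2 (SE 0.18), mir-467b by -1.34 (SE 0.20) and mir-467c by -0.84 (SE 0.14). The summed mir-467 family was 457 ± 118 CPM in block 1 and 188 ± 32.5 and 217 ± 60.9 CPM in blocks 2 and 3, a model difference of -1.21 log2 (SE 0.14) or -56.7%. Its share of the summed set was 53.1% ± 6.43 in block 1, 39.1% ± 2.96 in block 2 and 43.6% ± 4.33 in block 3 (SD).

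Of the mir-466 family, 16 of 19 tested members were lower in blocks 2 and 3. mir-466d ranged from 43.0 to 82.4 CPM (median 72.5) in block 1 and from 25.3 to 45.1 CPM (median 37.2) in blocks 2 and 3, and 9 of the 10 libraries of block 1 were above all of the others. It differed by -0.95 log2 (SE 0.11, edgeR adjusted p = 3.75e-07). The low entries mir-466a (-0.87, SE 0.14), mir-466b-1 (-0.82, SE 0.13) and mir-466b-2 (-0.83, SE 0.13) were also lower. The other 3 tested members of the family, mir-466f-2, mir-466g and mir-466q, were not called. mir-466g averaged 6.66 ± 2.64 CPM in block 1 (SD, n = 10) and 6.63 ± 1.25 CPM in blocks 2 and 3 (SD, n = 16), a log2 difference of 0.01 (SE 0.17, edgeR adjusted p = 0.861). The summed family differed by -0.69 log2 (SE 0.10).

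The mir-669 and mir-297 families differed less. Only mir-669d, mir-669d-2, mir-669l and mir-669o of 19 tested mir-669 members were called, and the family's median was -0.30 log2. mir-669c averaged 37.7 ± 11.4 CPM in block 1 and 41.3 ± 7.13 CPM in blocks 2 and 3, with a log2 difference of 0.19 (SE 0.13, edgeR adjusted p = 0.337). mir-669f stood at 7.66 ± 1.39 and 7.74 ± 1.48 CPM and differed by 0.01 log2 (SE 0.12). For both the ranges of the blocks overlapped, with 0 libraries of block 1 above all of the others. mir-669h, with 42.3% whole values, differed by 0.10 log2 (SE 0.15, edgeR adjusted p = 0.818). No profile called for block had more than 11.5% whole values. Among those not called, mir-669c (3.85%) and mir-669f (0%) had few as well. The mir-297 family had 0 of 4 tested members called (0 at an unadjusted p under 0.05), with mir-297b at -0.30 log2 (SE 0.15) and mir-297c at -0.24 (SE 0.15). By sums, mir-669 differed by -0.26 log2 (SE 0.11) and mir-297 by -0.37 (SE 0.15). Whether the families differed from each other was not tested.

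**Figure D4:**
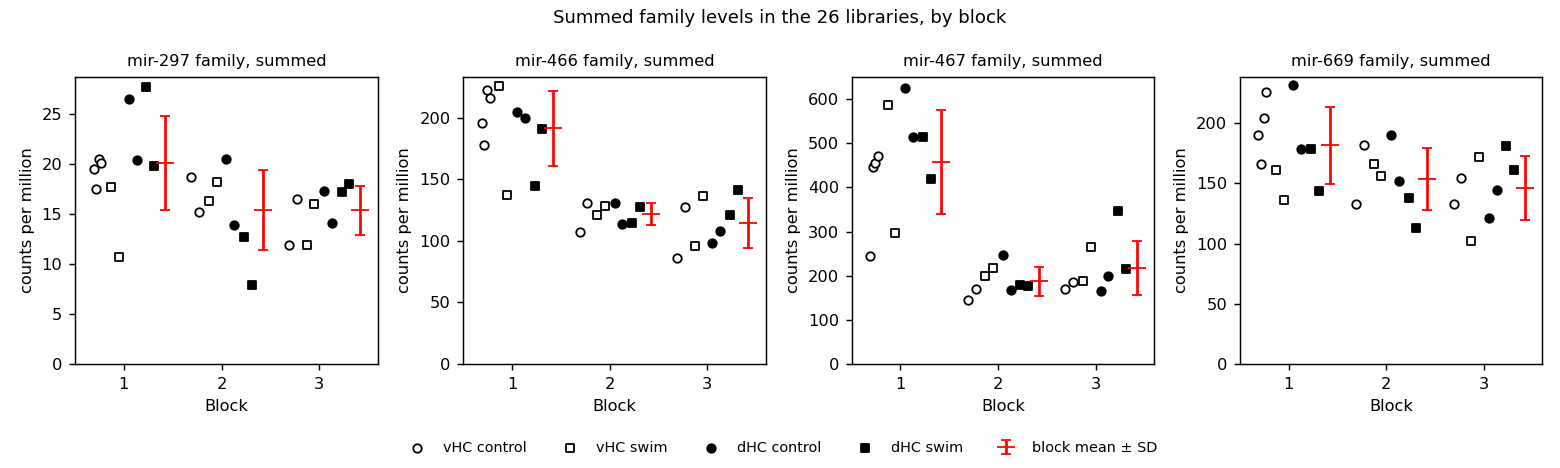
Summed level of each family in CPM in the 26 libraries, by block, with circles for control, squares for swim, open symbols for vHC and filled symbols for dHC. The red bars are the mean ± SD of each block. The mir-467 sum was 457 CPM in block 1 and 188 and 217 CPM in blocks 2 and 3, and the mir-669 sum was 182, 153.8 and 146 CPM.

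Kinds of copies that neighbour each other on the Sfmbt2 intron stood at different block values, though the differences between them were not tested. mir-467a-1, mir-466b-8 and mir-669a-1 lie within less than 1 kb, but these values are sums over all copies and not levels within 1 unit. The 10 copies of mir-467a summed to 186 ± 74.4 CPM in block 1 (SD, n = 10). In blocks 2 and 3 they summed to 77.6 ± 26.7 CPM (SD, n = 16). The 8 copies of mir-466b summed to 48.3 ± 9.31 and 26.6 ± 5.63 CPM. The 12 copies of mir-669a summed to 80.7 ± 19.02 and 61.4 ± 14.4 CPM. Copies were summed since the table does not tell them apart. Of the 53 tested members within Sfmbt2, 32 were called for block, and of the 2 elsewhere 1 was, mir-467h. mir-467h held a whole value in 0 of 26 libraries, so part of its count comes from reads shared with other precursors. Which precursors these are is not given, so its block difference cannot be placed outside Sfmbt2.

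**Figure D5:**
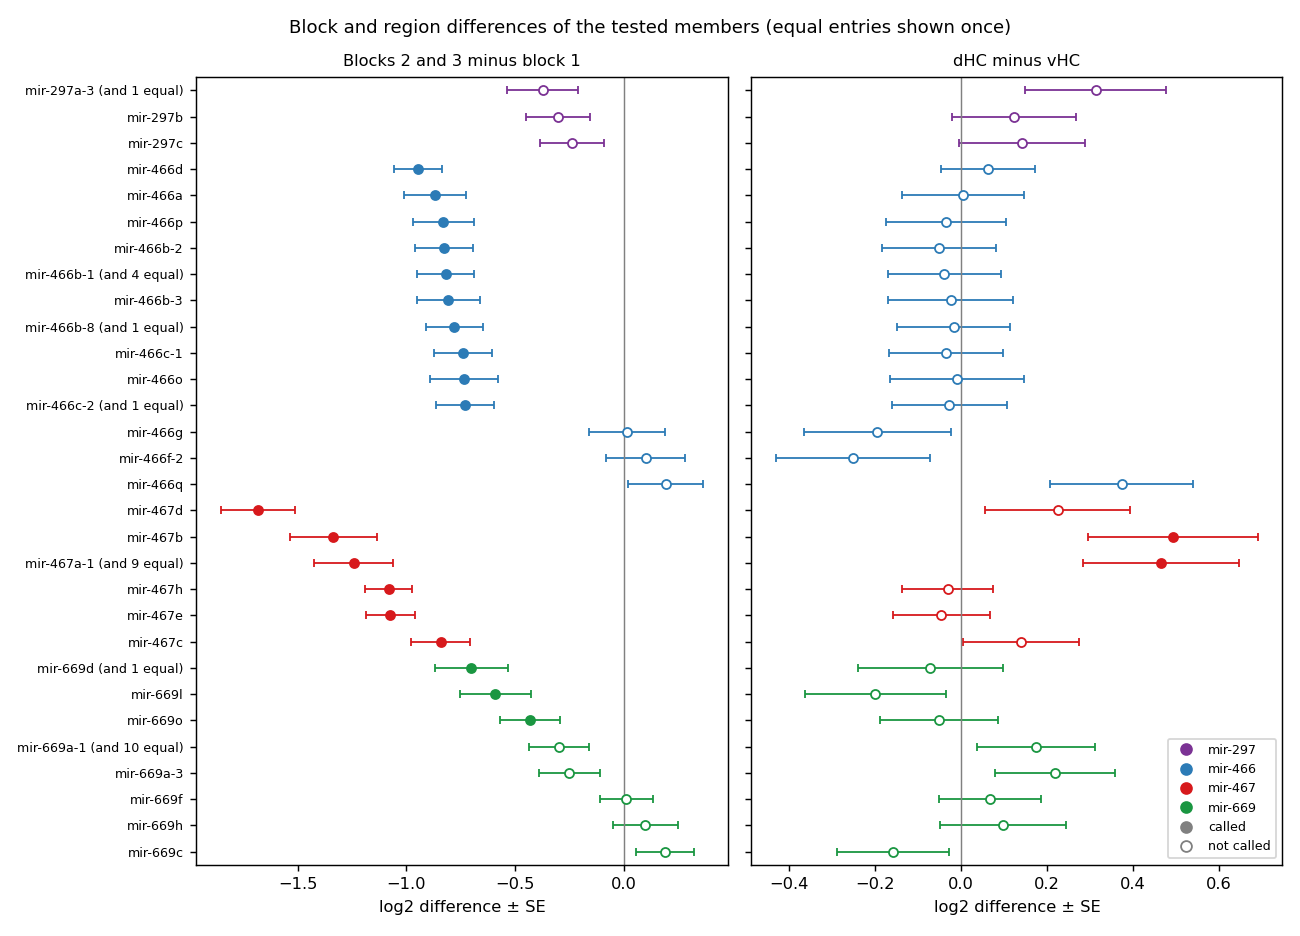
Log2 difference with its SE for the 30 distinct profiles of the tested members, for blocks 2 and 3 minus block 1 (left) and dHC minus vHC (right), coloured by family. Filled points passed the test at an adjusted p of 0.05. All 6 mir-467 profiles are filled on the left, and 2 of them, mir-467a-1 with its equal copies and mir-467b, on the right.

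The block values stand beside other properties of the libraries. The share of counts assigned to ribosomal RNA was 4.29% ± 0.667 in block 1 (SD, n = 10), 5.41% ± 0.579 in block 2 (SD, n = 8) and 6.33% ± 0.615 in block 3 (SD, n = 8). The median total miRNA count was 2614270, 2958561 and 2234607. The 1 endothelial marker entry tested was called higher in blocks 2 and 3, with endothelial sums of 3925 to 8475 CPM in block 1, 6149 to 9321 CPM in block 2 and 7938 to 11315 CPM in block 3. Of the other marker entries tested, 3 of 10 for neurons and 1 of 4 for myeloid cells were called lower in blocks 2 and 3, and 1 of 3 for oligodendrocytes was called higher. For erythroid cells 2 were called higher and 1 lower of 4, and for choroid plexus and ependyma 2 higher and 2 lower of 7. The part of these in the members' difference was not tested.

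Other miRNAs were set beside the families by the same fit. Of 124 entries of other miRNAs within the range of the members' levels, 43.5% were called by the block test. In the contrast of blocks 2 and 3 with block 1, 31 were called higher and 28 lower, with a median of 0.08 log2. The mir-379 to mir-410 cluster, another large imprinted miRNA cluster of the mouse, had 35 of 36 entries tested. Of these, 51.4% were called by the block test, and the contrast with block 1 called 6 higher and 14 lower in blocks 2 and 3. By region, 1 was higher and 18 were lower in dHC. No list was tested against another.

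Among miRNAs outside the families, 4 tested entries carry the run UGUGUGUG in a mature strand, which is given in capitals with the bases that extend it (GRCm38.p6). They are shown because most of the sequences held for members, all of them outside Sfmbt2, are of the same repeat-like kind.
mir-32, 3p strand: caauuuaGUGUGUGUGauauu
mir-574, 5p strand: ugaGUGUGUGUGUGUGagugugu
mir-672, 5p strand: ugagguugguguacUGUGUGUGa
mir-3082, 5p strand: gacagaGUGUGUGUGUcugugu
Only mir-32 of these 4 was called for block. It was lower in blocks 2 and 3 by 1.41 log2 (edgeR adjusted p = 1.09e-07) and higher in dHC by 0.66 log2 (edgeR adjusted p = 0.00105). The other 3 stood at -0.04 (mir-3082), -0.06 (mir-574) and 0.19 log2 (mir-672) for block, with edgeR adjusted p-values of 0.859, 0.665 and 0.164. An entry of the table does not separate the 5p from the 3p strand, so the run need not be on the strand that was counted.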

How the data were processed

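Small RNA libraries (Nextflex v3) of total RNA were analysed from the dHC and vHC of 26 samples. Adapters were removed by the authors (cutadapt), reads identical in sequence and molecular tag were merged, and Sports assigned them to small RNA annotations. The deposited unit is the expected count of each precursor entry, without normalization, in which a read that matches several precursors is split among them. The submitters' processing notes name GRCm38. The members and all lists were chosen with earlier results of these data known. The table had 0 columns without a sample, and 0 pairs of libraries were identical.

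The design had assumed whole counts, so the expected counts were rounded to whole numbers. Entries were kept by filterByExpr over the 4 groups (minimum count 10, minimum total 15), scaled by TMM to the summed miRNA count and tested with edgeR 4.0.16 quasi-likelihood fits in R 4.3.3, with Benjamini-Hochberg adjustment over the 463 entries tested and a threshold of 0.05. Stress and its interaction with region were tested with 2 surrogate variables, the number that the study used. They were estimated here (sva 3.50.0) with region in the null model. Surrogate variable 2 followed region (91.1% of its variance), so region and block were tested with region, stress, their interaction and block. Entries with the same rounded count in all libraries were treated as 1 measurement. Sums over members were described by the coefficient and standard error of a linear model of log2 CPM, with no p. Members given in full were the 2 most abundant of each family, the 5 with the smallest p for stress and for region, up to 10 called for block, and the members just inside and just outside 10 counts in 6 libraries. Alternatives changed the scaling, filter, tool (DESeq2 1.42.0), covariates, rounding, copies and libraries. The fits were tested on simulated counts.

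Total miRNA counts were 465387 to 4819724 per library. The labels do not say which animal each library came from, so p-values measure the spread between these samples, and counting intervals were not computed. Positions are from GENCODE vM21 and sequences from RefSeq on GRCm38.p6.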

Additional observations from a re-analysis of the deposited data

Results flagged for a closer look

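In 28 profiles and sums examined in each of the 4 groups, 12 of 112 groups held a library that stood apart from the others by Dixon's ratio (the gap to the nearest library divided by the group's range). Chance flags about 1 in 20 such groups, and many of these profiles share reads. In 10 of the 12, vHC swim library 5 of block 1 was the highest of 6. The summed set was 991 CPM there and 590 CPM in the next library (ratio 0.675). The summed mir-466 family was 226 CPM against 138 CPM (0.682) and the summed mir-467 family 586 CPM against 296.98 CPM (0.725). The same library was highest for mir-466a (7.07 CPM, ratio 0.673), mir-466b-1 and mir-466b-2 (7.59 CPM each, 0.647). It was also highest for mir-467a-1 (21.8 CPM, 0.715), mir-467b (20.4 CPM, 0.810), mir-467c (50.5 CPM, 0.770) and mir-467d (80.7 CPM, 0.736). Block 1 holds 2 of the 6 vHC swim libraries.

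In dHC swim mice, mir-466d was highest in library 16 of block 1, at 80.3 CPM against 43.0 CPM in the next library (ratio 0.842). mir-466g was lowest in dHC swim library 6, at 0.654 CPM, or 1 count, against 5.92 CPM in the next lowest library (ratio 0.713).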

How the results depend on the processing

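The counts called for stress were 0 in all 38 alternatives. The count called by the block test was 33 to 35 when single libraries were left out and 34 to 35 in the other settings without summed copies. It was 16 of 28 (57.1%, beside 52.5% of all) when copies were summed. With copies summed and no filter (chosen after seeing the data) it was 16 of 44 (36.4%, beside 22.9%). The contrast of blocks 2 and 3 with block 1 was less stable than the block test. It called 46 members lower, in place of 35, without vHC swim library 15, beside 168 of all entries lower. Without dHC swim library 28 it also called 46 lower, beside 169 of all entries. The count called for region was 0 with the log2 total as a covariate, with neither block nor surrogate variables, in swim libraries alone and without block 1 (chosen after seeing the data). It was 1, lower in dHC, with surrogate variables from an intercept alone, 12 in control libraries alone, all higher, 3 with copies summed and 2 with copies summed without a filter (chosen after seeing the data), and 0 to 12 when single libraries were left out. With surrogate variables from a null model with region in place of block, the region differences were -1.14 log2 (mir-467a-1) and -1.27 (mir-467b). In the same fit they were -1.06 (mir-466q), -0.64 (mir-297a-3) and -1.21 (mir-669a-3). The causes were not tested. Of 15 members' block differences under 36 alternatives each, 528 of 540 kept their direction and side of the threshold. The other 12 were changes of sign near 0, at -0.0057 (mir-466g) and -0.0088 (mir-669f) with library sizes over the whole table, and -0.0036 and -0.0030 with copies summed. Leaving out single libraries gave mir-466g -0.11 to 0.16 and mir-669f -0.033 to 0.10.

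Sums moved by more than the spread only within blocks. The dHC swim difference was -0.28 log2 in block 1 and 0.47 in block 3 for the set, -0.28 and 0.34 for mir-466, 0.59 in block 3 for mir-467, -0.45 in block 2 and 0.37 in block 3 for mir-669, and -0.75 in block 2 for mir-297. The region difference of mir-297 was 0.51 in block 1 and -0.39 in block 2. Block sums kept their sign in all 32 alternatives, at -0.90 to -0.75 log2 for the set and -1.30 to -1.13 for mir-467. No paired analysis was possible because no library number is shared between groups. Each dHC library has the number after that of a vHC library of the same condition and block, but the labels do not say that such neighbours share an animal, and the region test treated all libraries as independent. Depth limits the low members, and 25 of 82 could not be tested.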
